A study of Mus musculus with 38 samples.

Results

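Genes of peptide signalling, 7 in all, were followed across the striatum of individual mice: the peptide precursor genes Nts, Gal and Cartpt, and the receptor genes Npy1r, Npy2r, Avpr1a and Trhr. They were chosen by gene symbol in the annotation of the bead array, with the brightest probe standing for a gene, and each of the 7 genes had a probe among the 9455 features that were tested on the array (8444 named genes and 1011 unnamed probes). The series profiled total RNA from the striatum of MF1 mice aged 152 days on Illumina bead arrays. It compares 4 kinds of animal, namely XY, XXY and XX males with XX females. Men with Klinefelter syndrome are XXY, and the series title speaks of feminized expression in a mouse model of that syndrome. The sample codes of all 3 male groups, the XY control males included, carry the name Sry, the testis-determining gene, beside the sex chromosomes, whereas the code of the XX females does not. The labels used here do not say how Sry is carried. Signals were available for 9 XX females and for 11 XY, 8 XX and 9 XXY males, and the labels call the animals biological replicates. A further XY male, replicate 3, had detection p-values and no signal column.

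Neuropeptides are cut from larger precursors, stored in dense-core vesicles and released by active neurons, and they act on receptors that couple to G proteins. Neurotensin, the product of Nts, is made by part of the striatal projection neurons and modulates dopamine signalling. The precursor encoded by Cartpt gives CART peptides, known for their regulation by psychostimulants in the ventral striatum. Galanin, from Gal, is made mainly in hypothalamic and brainstem neurons and inhibits the neurons it reaches. Npy1r and Npy2r encode the Y1 and Y2 receptors of neuropeptide Y, a peptide of striatal interneurons, and the Y2 receptor often sits on nerve endings. Avpr1a encodes the V1a receptor of vasopressin, known for its part in male social behaviour, and Trhr encodes the receptor of thyrotropin-releasing hormone.

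The start regions of 4 of the genes are shown because each of these genes belongs to at least 1 of the pairs that co-varied over animals, as described further on. The RefSeq table for GRCm38.p6 gave a start region, 250 bases before to 50 bases after the start of the gene, for 6 of the 7 genes, and Trhr was not among them. Capitals mark matches to TGACGTCA (the cyclic AMP response element, CRE), to its shorter form TGACG, to TGACTCA (the AP-1 element) and to TATAAA. The first 3 were searched on both strands and TATAAA on the gene's strand only, and every CRE match also holds a match to the shorter form. The regions are Nts at chr10:102490369-102490668, Cartpt at chr13:99900634-99900933 and Gal at chr19:3414495-3414794, all on the minus strand, and Avpr1a at chr10:122448249-122448548 on the plus strand. Each is printed from its 5′ end in the direction of the gene.
Nts: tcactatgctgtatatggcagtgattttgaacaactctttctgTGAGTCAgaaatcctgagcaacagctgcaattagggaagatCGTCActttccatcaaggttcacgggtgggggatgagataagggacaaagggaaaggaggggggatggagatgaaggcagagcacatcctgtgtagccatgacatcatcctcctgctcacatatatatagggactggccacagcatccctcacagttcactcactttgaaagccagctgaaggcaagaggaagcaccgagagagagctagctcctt
Cartpt: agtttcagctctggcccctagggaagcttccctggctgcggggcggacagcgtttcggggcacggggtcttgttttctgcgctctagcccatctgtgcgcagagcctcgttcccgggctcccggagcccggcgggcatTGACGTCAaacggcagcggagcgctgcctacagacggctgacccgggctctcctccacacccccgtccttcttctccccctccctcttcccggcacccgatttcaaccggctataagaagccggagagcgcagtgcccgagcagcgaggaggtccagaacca
Gal: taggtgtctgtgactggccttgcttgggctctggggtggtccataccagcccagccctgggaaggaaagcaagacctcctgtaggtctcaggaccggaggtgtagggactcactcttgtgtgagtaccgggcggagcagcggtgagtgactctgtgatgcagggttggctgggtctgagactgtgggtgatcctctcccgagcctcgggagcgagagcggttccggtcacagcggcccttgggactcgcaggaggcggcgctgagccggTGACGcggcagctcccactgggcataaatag
Avpr1a: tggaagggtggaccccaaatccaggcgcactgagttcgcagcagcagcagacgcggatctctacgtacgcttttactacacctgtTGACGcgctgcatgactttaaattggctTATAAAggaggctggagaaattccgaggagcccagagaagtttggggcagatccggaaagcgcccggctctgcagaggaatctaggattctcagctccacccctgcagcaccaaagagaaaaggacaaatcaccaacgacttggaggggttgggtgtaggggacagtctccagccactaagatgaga
Cartpt held the full CRE at -112 from the start, a match found in 1.79% of all 32851 start regions of the table. Nts held TGAGTCA, the AP-1 element read on the other strand, at -207, and the shorter CRE form at -166. The AP-1 element was present in 5.2% of all start regions and the shorter CRE form in 20.8%. Avpr1a had the shorter form at -165 and TATAAA, present in 8.32% of regions, at -137. Gal had the shorter form downstream of the start, at 20. Of the regions not printed, Npy1r held an AP-1 match at -231 and Npy2r held none of these letters. A match describes the sequence and says nothing about binding.

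Levels are given as normalized log2 intensity, and a probe was called detected where its detection p-value was under 0.01. The number of detected probes per array ranged from 10089 to 12392. Sample codes end in a, in b or carry both letters, and arrays with letter b were brighter, with a 90th percentile of the raw signal of 1266 to 2209 against 632 to 937 for letter a. What the letters mark is not given in the labels, and because of this brightness they were treated as a sign of the array run. All XX females had letter b and all XX males letter a. The 9 animals with both letters, all XY or XXY males, appear to hold 2 arrays averaged by the authors before deposit and were used as 1 animal each. Xist, the RNA of the inactive X chromosome, was detected in 0 of 11 XY males and in every animal of the other groups. All 13 tested striatal projection neuron markers, among them the dopamine receptor gene Drd1, were detected in all 37 animals. Of 7 tested hypothalamic and preoptic markers, 4 were also detected in every animal, and Pmch, the precursor of melanin-concentrating hormone, ranged from 6.08 to 13.9 on the log2 scale.

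Nts was detected in 36 of 37 animals. Its lowest, median and highest log2 levels were 6.13, 6.95 and 8.84 in XY males, and 6.43, 7.46 and 9.93 in XXY males. In XX males they were 5.39, 6.37 and 8.20, and in XX females 6.36, 7.73 and 9.44. XX males were lowest on average, at 6.55 ± 0.82 (SD, n = 8), followed by XY males at 7.15 ± 0.87 (n = 11), XXY males at 7.63 ± 1.11 (n = 9) and XX females at 7.89 ± 1.03 (n = 9), with wide overlap between all groups. The highest animal was XXY male 5, and XX male 8, at 5.39, was the only animal in which the probe was not detected.

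Gal was detected in all 37 animals. XY males had log2 levels with a lowest, median and highest value of 7.72, 8.69 and 9.48. In XXY males these were 6.65, 8.68 and 9.38, in XX males 6.61, 8.30 and 9.66, and in XX females 6.04, 7.75 and 8.74. Group means ran from 7.64 ± 0.94 in XX females (SD, n = 9) through 8.27 ± 0.91 in XX males (n = 8) and 8.34 ± 0.96 in XXY males (n = 9) to 8.65 ± 0.63 in XY males (n = 11), and the groups overlapped. Over all groups, the 14 letter b animals averaged 7.66 ± 0.82 and the 14 letter a animals 8.62 ± 0.80. Among letter a animals, the 8 XX males averaged 8.27 ± 0.91, below the 4 XY males at 9.03 ± 0.26 and the 2 XXY males at 9.23 ± 0.21. Among XY males alone, the 4 letter b animals lay between 7.72 and 8.28 and the 4 letter a animals between 8.69 and 9.26, so that the letters did not overlap there. Letter and labelled batch coincide in those 8 XY males and cannot be told apart among them.

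Cartpt was likewise detected in all 37 animals, and its second probe on the array followed the first with r = 0.98 over animals. XY males ranged from 8.86 to 10.75 with a median of 9.67, and XXY males from 7.71 to 10.89 with a median of 9.99. XX males ranged from 8.38 to 10.63 (median 9.49) and XX females from 8.22 to 10.21 (median 9.74). The 4 means lay close together, at 9.52 ± 0.79 in XX males (SD, n = 8), 9.53 ± 0.67 in XX females (n = 9), 9.63 ± 0.60 in XY males (n = 11) and 9.85 ± 0.91 in XXY males (n = 9). XXY male 9 stood far below the rest of its group, at 7.71 against 9.41 for the next animal. It is the only XXY male with letter b alone, and it was the lowest XXY male for 6 of the 7 genes, all but Npy1r.

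**Figure D1:**
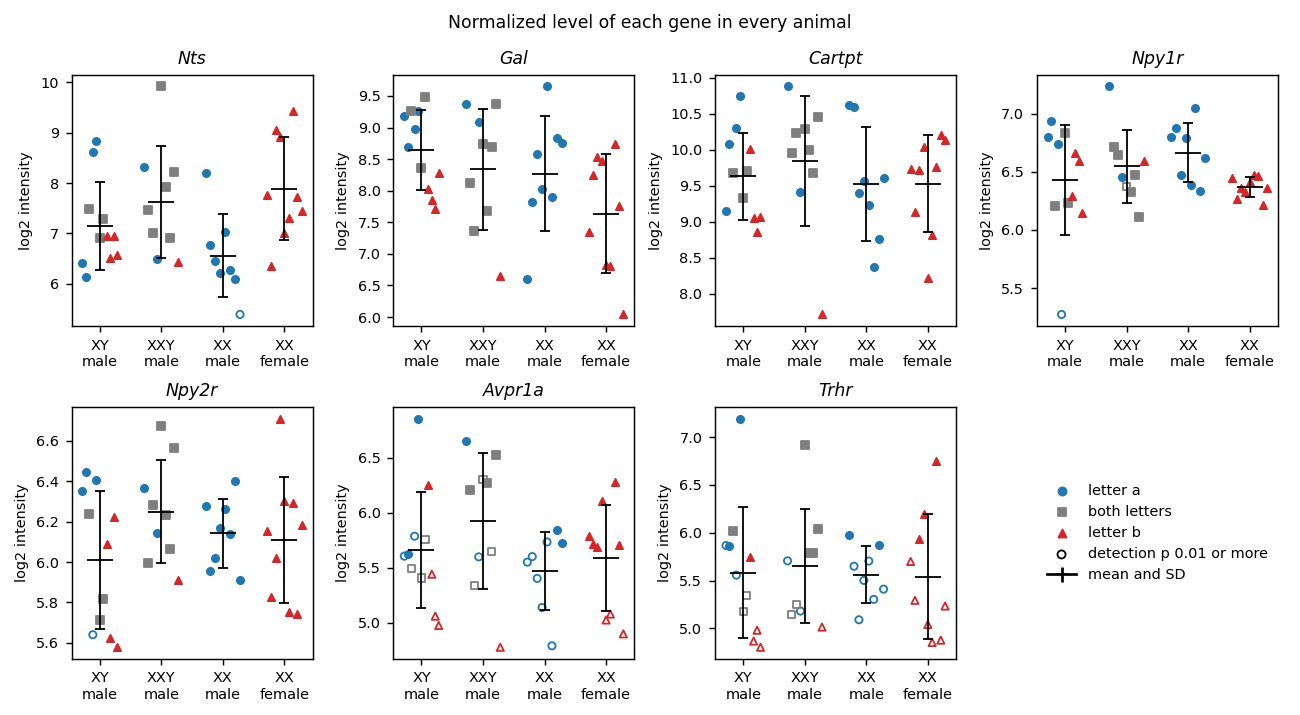
Normalized log2 intensity (vertical axis) of the 7 genes in each of 37 animals, by group, with symbols for the letter of the sample code, open symbols for a detection p-value of 0.01 or more, and a black bar for the group mean with its SD. The groups overlap in every panel, the animals of Nts, Gal and Cartpt spread over several log2 units, and Avpr1a and Trhr are often below detection.

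The Y1 receptor gene Npy1r was detected in 35 animals and the Y2 receptor gene Npy2r in 36. Npy1r had a lowest, median and highest log2 level of 5.27, 6.59 and 6.94 in XY males, 6.11, 6.47 and 7.24 in XXY males, 6.34, 6.71 and 7.05 in XX males, and 6.22, 6.36 and 6.47 in XX females. XX females were thus tightly grouped, with an SD of 0.088 around 6.37 (n = 9), against SDs of 0.47 in XY males, 0.32 in XXY males and 0.25 in XX males. All XX females had letter b, and the spread also differed by letter. Over all groups the SD was 0.15 in 14 letter b animals, 0.25 in 9 with both letters and 0.47 in 14 with letter a. The 4 letter b XY males had an SD of 0.24. The large SD of XY males came with a single letter a animal, XY male 6, at 5.27, where the probe was not detected (detection p-value 0.068). Npy2r varied little: its group means were 6.01 ± 0.34 in XY males (SD, n = 11), 6.11 ± 0.31 in XX females (n = 9), 6.14 ± 0.17 in XX males (n = 8) and 6.25 ± 0.25 in XXY males (n = 9). The lowest animal of all was XY male 12 at 5.58 and the highest was XX female 4 at 6.71.

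Avpr1a and Trhr were dim. The vasopressin receptor probe was detected in 15 animals, namely 3 of 11 XY males, 4 of 9 XXY males, 2 of 8 XX males and 6 of 9 XX females, and the Trhr probe in 13, namely 4, 4, 2 and 3 in the same order. Avpr1a had a lowest, median and highest log2 level of 4.97, 5.60 and 6.85 in XY males, 4.78, 6.20 and 6.65 in XXY males, 4.79, 5.57 and 5.84 in XX males, and 4.90, 5.70 and 6.28 in XX females. No XX male exceeded 5.84, whereas each other group had animals above 6. Group means were 5.47 ± 0.35 in XX males (SD, n = 8), 5.59 ± 0.48 in XX females (n = 9), 5.66 ± 0.53 in XY males (n = 11) and 5.92 ± 0.62 in XXY males (n = 9). Trhr means were almost equal, from 5.54 ± 0.65 in XX females to 5.65 ± 0.60 in XXY males, and each group except the XX males held 1 animal far up: XY male 6 at 7.19, XXY male 5 at 6.92 and XX female 7 at 6.75. XX males stayed between 5.09 and 5.98. Levels near background are compressed by the normalization offset, so differences of these probes may be understated, by an amount that was not measured.

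None of the 7 genes passed the test between any 2 groups. The 6 pairwise comparisons gave 42 differences for the 7 genes, and 0 of them passed the threshold of an adjusted p under 0.05 in limma, with labelled batch and array letter in the model. The background was low as well. Of all 9455 features, 0.0635% passed in XXY against XY males, 0.0529% in XX females against XY males and 0.0529% in XX males against XY males. The share was 0.0423% in XXY males against XX females, 0.0212% in XXY against XX males and 0.0106% in XX males against XX females. A test for any difference among the 4 groups called 0.106% of features and 0 of the 7 genes, whose lowest adjusted p in limma was 0.922. At an unadjusted p under 0.05 that test passed 3.88% of features and 0 of the 7 genes. In all 42 combinations of a gene with a pair of groups, the ranges of single animals overlapped. The share of such overlaps over all features was not computed, so whether the overlap is particular to the 7 genes cannot be told. Whole striatum was measured, so fewer cells of a type and less RNA per cell cannot be told apart in any of these levels.

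In XXY against XY males, the comparison nearest to the series title, 6 of the 7 differences were above 0, with a median of 0.14 on the log2 scale against -0.0011 for all features. Nts differed by 0.42 (SE 0.41), Gal by -0.38 (SE 0.33), Avpr1a by 0.22 (SE 0.21) and Npy2r by 0.21 (SE 0.12), and the limma adjusted p was 1.00 for each. Leaving out 1 animal in turn gave 0.15 (without XXY male 5) to 0.60 (without XXY male 4) for Nts, -0.53 (without XXY male 8) to -0.24 (without XXY male 9) for Gal, 0.14 (without XXY male 8) to 0.35 (without XXY male 9) for Avpr1a and 0.15 to 0.25 for Npy2r. The 95% interval of the Nts difference ran from -0.41 to 1.26 and that of Npy2r from -0.037 to 0.46. At an unadjusted p under 0.05, 0 of the 7 genes and 1.3% of all features passed. XX females against XY males gave 5 of 7 differences above 0 and a median of 0.25, led by Nts at 0.85 (SE 0.54, adjusted p 0.890 in limma). The Nts interval, -0.25 to 1.95, was wide and held 0. At an unadjusted p under 0.05, 5.27% of all features and 0 of the 7 genes passed. XXY males and XX females share the XY males as reference in these comparisons. Set directly against each other, they differed by between -0.43 (Nts, SE 0.57) and 0.13 (Npy1r, SE 0.21) over the 7 genes, with 0 of them and 4.09% of all features past an unadjusted p under 0.05.

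XX males had the lowest level after adjustment in the model for 5 of the genes, with no call. Of these 5, Gal and Trhr were lowest in XX females by plain group means. In XX against XY males the median difference of the 7 genes was -0.52, against 0.0062 for all features. Gal was lower by 1.09 on the log2 scale (difference -1.09, SE 0.42), Nts by 0.81 (difference -0.81, SE 0.52), Cartpt differed by -0.60 (SE 0.37), Avpr1a by -0.52 (SE 0.27) and Trhr by -0.37 (SE 0.31). Only Gal reached an unadjusted p under 0.05, as did 6.5% of all features, and its limma adjusted p was 0.636. XXY males stood above XX males by 1.24 for Nts (SE 0.52), 0.74 for Avpr1a (SE 0.27), 0.74 for Cartpt (SE 0.38) and 0.71 for Gal (SE 0.43), each with an adjusted p of 0.689 in limma. Nts and Avpr1a passed unadjusted, as did 6.24% of all features. XX males fell below XX females by a difference of -1.66 for Nts (SE 0.78), with a 95% interval of -3.26 to -0.069 and an adjusted p of 0.561 in limma. It was the only one of the 7 genes past an unadjusted p under 0.05 there, as were 7.62% of all features. With array weights in the fit, Nts passed in all 3 comparisons with XX males (differences of -1.32 from XY males, 1.51 for XXY against XX males and -2.31 from XX females, adjusted p 0.026, 0.0463 and 0.0201 in limma), and Gal passed against XY males (-1.19, adjusted p 0.0316 in limma). Over all alternatives other than leaving out single animals, the adjusted p of these 4 differences ranged up to 0.882, 1.00, 1.00 and 0.872 in limma. Array weights also raised the count of called features in XX against XY males from 5 to 2477.

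None of the 11 marker lists had a called gene in XX against XY males or in XX males against XX females. The 7 tested hypothalamic and preoptic markers had a median difference of -1.04 in XX against XY males and -1.41 in XX males against XX females, where 0 of 7 were above 0. Other lists stood higher in XX males against XX females in the model, with median differences of 1.23 for 7 thalamic markers (6 above 0), 1.21 for 5 choroid plexus markers (all 5 above 0) and 0.86 for 5 endothelial markers (4 above 0). All of these differences include the letter term, and plain list means lay closer for most lists. In XX males and XX females they were 9.32 and 9.27 for thalamic and 7.99 and 7.79 for endothelial markers. Choroid plexus markers had 9.55 and 8.62, and hypothalamic and preoptic markers 8.44 and 8.63. The mean log2 level of the 7 hypothalamic and preoptic markers ran from 7.40 to 10.00 in XX males, 6.88 to 10.21 in XY males, 6.93 to 9.93 in XXY males and 7.14 to 10.23 in XX females. Their part in the result was not tested. The 13 striatal projection neuron markers had a median difference of 0.17 in XX against XY males, all 13 above 0.

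The contrast of XX males with XX females rests on the array letter more than the others do. With all XX males on letter a and all XX females on letter b, the letter's effect is estimated in XY and XXY males alone. The sign of the Gal difference depends on the letter term. The plain group means put XX males above XX females, at 8.27 against 7.64, while the model gave a difference of -0.81 (SE 0.64), and without the letter term 0.61. Plain means also put XX males slightly above XX females for Trhr, at 5.56 against 5.54, and for Npy2r, at 6.14 against 6.11. The model gave differences of -0.63 (SE 0.46) and -0.15 (SE 0.24) for these genes. Cartpt had nearly equal plain means, 9.52 against 9.53, and a model difference of -0.92 (SE 0.56). Nts kept its sign, and without the letter term its difference was -1.37 with an adjusted p of 0.0184 in limma. The letter term itself called 13.2% of all features and 0 of the 7 genes, all of which had negative estimates. At an unadjusted p under 0.05 it passed 28.8% of features and 1 of the 7 genes, Gal. Gal had the largest, -1.44 (SE 0.54, adjusted p 0.069 in limma), and Cartpt followed with -0.90 (SE 0.48). The labelled batch called 0 features in limma, and 1.65% of all features passed at an unadjusted p under 0.05.

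**Figure D2:**
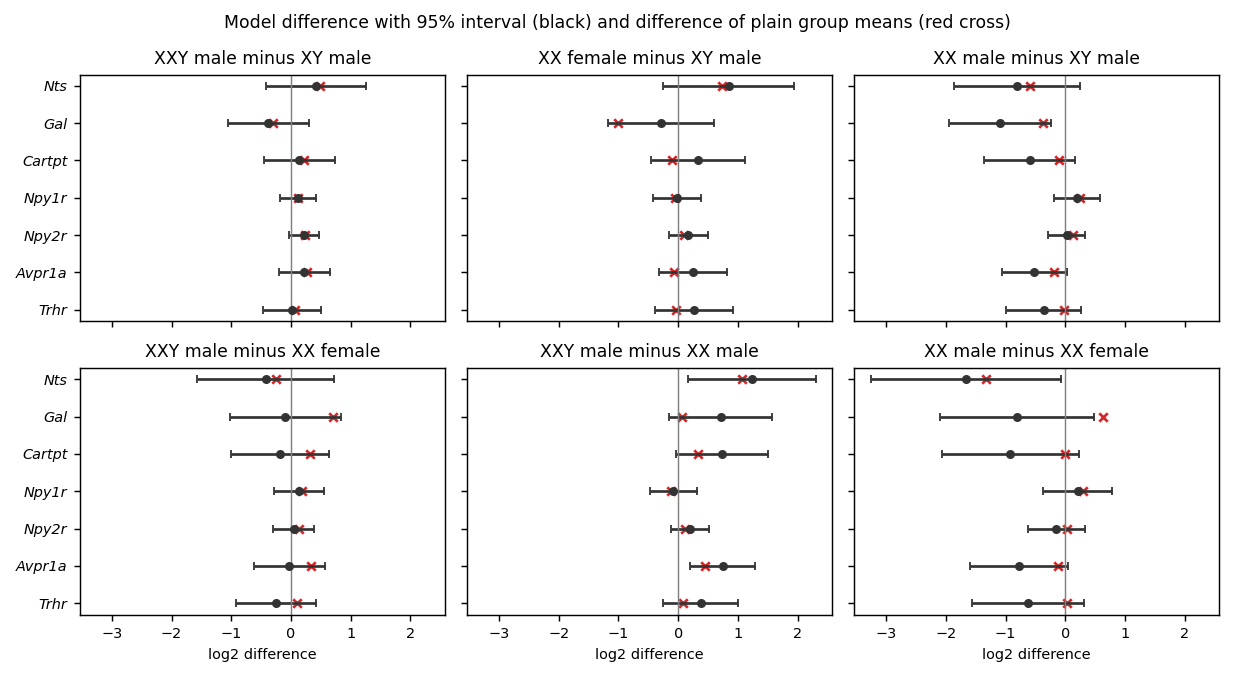
Differences in log2 level of the 7 genes (horizontal axis) in the 6 pairwise comparisons, from the model with labelled batch and array letter (black, with the 95% interval) and from the plain group means (red crosses). In the lower right panel the plain Gal difference lies right of 0 and the model's lies left of it, and the widest interval is that of Nts.

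The 7 genes differed in their spread between animals of a group. After removing group, labelled batch and array letter, Nts had a residual SD of 0.96 on the log2 scale, higher than 99% of all features, whose median was 0.32. Gal (SD 0.78) stood above 97.6% of features, Cartpt (SD 0.69) above 95.8%, Trhr (SD 0.56) above 89.9% and Avpr1a (SD 0.49) above 82.5%. The neuropeptide Y receptors varied less, with Npy1r (SD 0.34) above 54.3% and Npy2r (SD 0.27) above 34.5%. Among the 500 features nearest in mean level, Npy1r stood above 39.4% and Npy2r above 12.4%. There the other genes stood above 85.2% (Avpr1a) to 98% (Nts). The bead standard error, a measure of spread between beads on an array, had a median of 5.64% of the signal for Nts and between 3.29% and 4.28% for the other 6 genes.

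The same animals tended to be high for several of the genes. XX female 7 was the highest XX female for 4 of the 7 genes and XXY male 1 the highest XXY male for 4. XY male 6 was the highest XY male for 4 genes, Nts, Cartpt, Avpr1a and Trhr, and the lowest for Npy1r. Over the residuals of 37 animals, 15 of the 21 pairs of genes were positively correlated, with a median Pearson r of 0.33 and a range from -0.45 to 0.70. Each pair was also tested with one gene as a covariate in limma over all features, and 6 pairs passed an adjusted p under 0.05 with either gene as the covariate. This has to be read against the background: with Nts as covariate 65.2% of all features passed, with Trhr 58.3% and with Avpr1a 36.4%, but with Gal 5.56%, with Cartpt 2.28%, and with Npy1r and Npy2r 0%.

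Nts and Trhr formed the closest pair by Pearson r, with r = 0.70 and Spearman's rho = 0.57 (permutation p 1e-05 and 4e-04, the former the smallest that the permutations can give). By rho other pairs were closer, up to 0.71 for Npy2r with Trhr. Without the 2 animals farthest from the median of Nts, XXY male 5 and XX female 7, r of Nts with Trhr was 0.57. It was 0.74 in labelled batch 1 and 0.67 in batch 2. Avpr1a and Trhr followed with r = 0.67 and rho = 0.60 (permutation p 1e-05 and 0.00017), with r = 0.68 without 2 animals and 0.68 and 0.69 in the batches. Both probes are dim.

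Cartpt joined this cluster through Avpr1a and Nts. With Avpr1a it had r = 0.61 and rho = 0.59 (permutation p 6e-05 and 0.00018), r = 0.59 in batch 1 and 0.63 in batch 2. Without XXY male 9 and XX female 5, the 2 animals farthest from the median of Cartpt, r was 0.52 and the limma adjusted p rose from 0.014 to 0.107. With Nts it had r = 0.56 and rho = 0.60 (permutation p 0.00029 and 1e-04), 0.58 without 2 animals, and 0.66 and 0.43 in the batches. Nts and Avpr1a had r = 0.57 and rho = 0.60 (permutation p 0.00018 and 0.00013), 0.52 without 2 animals, and 0.65 and 0.57 in the batches.

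Gal stood apart from the other peptides. It correlated with Avpr1a, with r = 0.54 and rho = 0.58 (permutation p 0.00053 and 0.00024), r = 0.56 without 2 animals, 0.40 in batch 1 and 0.68 in batch 2. Without XXY male 5 and XX female 7 the pair had r = 0.49 and did not pass (adjusted p 0.0949 in limma). With Nts its r was 0.23 and with Cartpt 0.058, neither past the test. These values were not stable over animals. For Nts r was 0.11 without 2 animals, and -0.24 on letter a and 0.52 on letter b. For Cartpt it was 0.31 without XX male 1 and XX female 9, and -0.37 on letter a and 0.32 on letter b. Npy2r correlated with Trhr at r = 0.66 and rho = 0.71 (permutation p 1e-05 for both), 0.65 without 2 animals and 0.64 and 0.69 in the batches. That pair passed with Trhr as the covariate (adjusted p 0.00024 in limma) and not with Npy2r, where 0 features passed and the adjusted p was 0.163. Npy1r had a negative r with each of the other 6 genes, from -0.17 with Cartpt (permutation p 0.311) to -0.45 with Trhr (permutation p 0.00641). The permutation p was 0.123 with Nts and 0.192 with Npy2r. Without XY male 6 and XXY male 1, the 2 animals farthest from the median of Npy1r, r with Trhr was -0.26. Among letter b animals r was 0.085 with Nts, 0.17 with Npy2r and 0.027 with Trhr, and negative with Gal, Cartpt and Avpr1a.

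**Figure D3:**
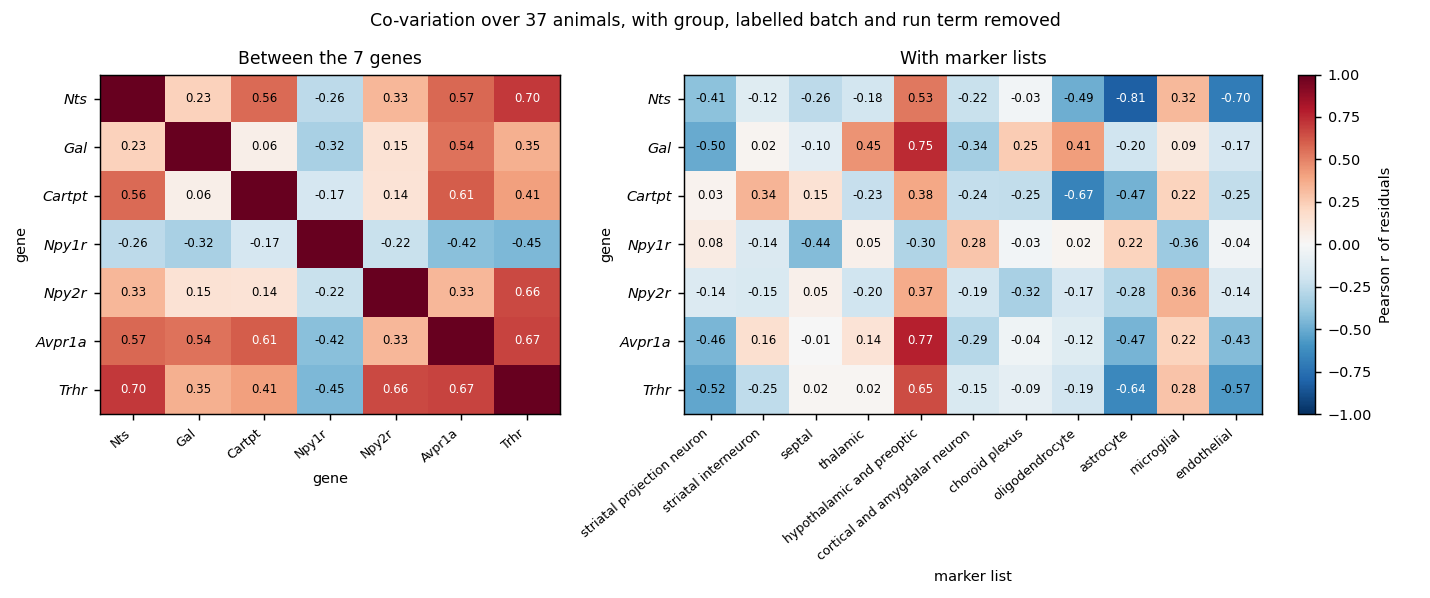
Pearson correlations over 37 animals, on a colour scale from -1 to 1, between the residuals of the 7 genes (left) and of the genes with 11 marker lists (right). Nts, Cartpt, Avpr1a and Trhr are positively correlated with one another, Npy1r is negative with each of the other 6 genes on the left, and the column of hypothalamic and preoptic markers is the most positive on the right.

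The genes that followed each member most closely differed between members. Of 8437 other named genes, Nts was nearest to Fam229b, Cbr1, a carbonyl reductase, and Cnpy2, each with r = 0.91. Its 65.2% of co-varying features went with the first component of the residuals, which held 45.3% of their variance and correlated with Nts at 0.84, with Trhr at 0.74, with Avpr1a at 0.55, with Gal at 0.38, with Npy2r at 0.36, with Cartpt at 0.27 and with Npy1r at -0.24. XXY male 5 and XX female 7 scored highest on that component. In the fit with array weights, these animals had the lowest weights of all 37, at 0.147 and 0.185. XXY male 5 also had the fewest detected probes, 10089, against 11244 in XX female 7. Whether array quality had a part in the component was not tested. Gal was nearest to Nrip2, Ciapin1 and Ttc39a, with r of 0.75, 0.71 and 0.71. Cartpt was nearest to 6330403K07Rik (r = 0.85), Zcchc12 (r = 0.80) and Tmem91 (r = 0.80). These likenesses are given over 37 animals and were chosen as the highest values.

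Among the receptors, Avpr1a followed Fxyd6, which encodes a regulator of the sodium pump (r = 0.87), Cbln4, a secreted synapse-organizing protein (r = 0.84), and Rxfp3, the receptor of relaxin-3 (r = 0.84). Trhr followed Trpc7, a cation channel gene (r = 0.86), Esyt3 (r = 0.86) and Dleu7 (r = 0.84). Npy2r was nearest to Zfp661 at r = 0.69, with Rpf1 and Chst7 next at 0.68 and 0.63, and Npy1r to Daam1 at 0.66, with Arid4b and Socs6 at 0.64 and 0.58. None of the 6 genes nearest to Npy1r and Npy2r passed the limma test over all features.

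Levels of 5 of the 7 genes moved with hypothalamic and preoptic markers across animals. The list's score, the mean standardized residual of Avp, Oxt, Hcrt, Pmch, Trh, Nkx2-1 and Isl1, correlated with Avpr1a at r = 0.77 and rho = 0.79 (permutation p 1e-05 for both), with r = 0.72 without 2 animals and 0.68 and 0.84 in the batches. Gal followed it with r = 0.75 and rho = 0.74 (permutation p 1e-05 for both), 0.76 without 2 animals, and 0.72 and 0.79 in the batches. Trhr had r = 0.65 and rho = 0.64 (permutation p 2e-05 for both), 0.57 without 2 animals, and 0.59 and 0.74 in the batches. Nts had r = 0.53 and rho = 0.54 (permutation p 0.00077 and 0.00072), 0.48 without 2 animals, and 0.53 and 0.61 in the batches. Cartpt was lower, with r = 0.38 and rho = 0.38 (permutation p 0.0198 and 0.0204) and an adjusted p of 0.0482 in limma. Without XXY male 5 and XX female 7, a choice made after seeing the data, r was 0.39 for Nts and 0.37 for Cartpt, and neither passed (adjusted p 0.0883 and 0.111 in limma). This score called 47.8% of all features. Of the 77 relations between the 7 genes and 11 lists, 18 passed the limma test. None of these 18 involved the list scores of striatal interneurons, septum, thalamus, cortex and amygdala, choroid plexus or microglia. Those scores called 5.81%, 0.0106%, 9.8%, 0.529%, 1.07% and 0.116% of all features, in that order. By the permutation p of r, adjusted over the 77 relations, the calls differed in 4 relations. Gal with the thalamic list (r = 0.45, adjusted permutation p 0.0231), Gal with the oligodendrocyte list (r = 0.41, adjusted permutation p 0.0426) and Npy1r with the septal list (r = -0.44, rho = -0.31, adjusted permutation p 0.0309) passed. Cartpt with the hypothalamic and preoptic list did not (adjusted permutation p 0.0727). A list score averages its markers, and single markers of lists without a call could pass with opposite signs. With Nts, r was 0.79 for the microglial Tyrobp and -0.65 for Cx3cr1. It was 0.64 for the interneuron marker Vip, -0.50 for Slc18a3 and -0.76 for the thalamic Rora. These single markers all passed in limma, where 65.2% of all features passed with Nts.

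The single hypothalamic and preoptic markers did not all behave alike. Gal was positively correlated with all 7, from 0.13 with Isl1 to 0.63 with Pmch. Avpr1a was positive with 6 of 7, up to 0.80 with Oxt, and negative with Nkx2-1 (r = -0.24), a transcription factor gene of the ventral forebrain. Nkx2-1 ran against its list in other members too, and passed the limma test with a negative sign for Trhr (r = -0.53, adjusted p 0.00316) and Nts (r = -0.39, adjusted p 0.0337). With Cartpt its r was -0.42 (adjusted p 0.176 in limma). The markers were present at very different levels between animals: Avp, the vasopressin precursor, ranged from 5.93 to 12.3 on the log2 scale, Oxt, the oxytocin precursor, from 5.25 to 11.1, and Hcrt, the orexin precursor, from 4.72 to 10.5 with detection in 27 of 37 animals. The part of these cells' RNA in the levels of the 7 genes was not tested.

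**Figure D4:**
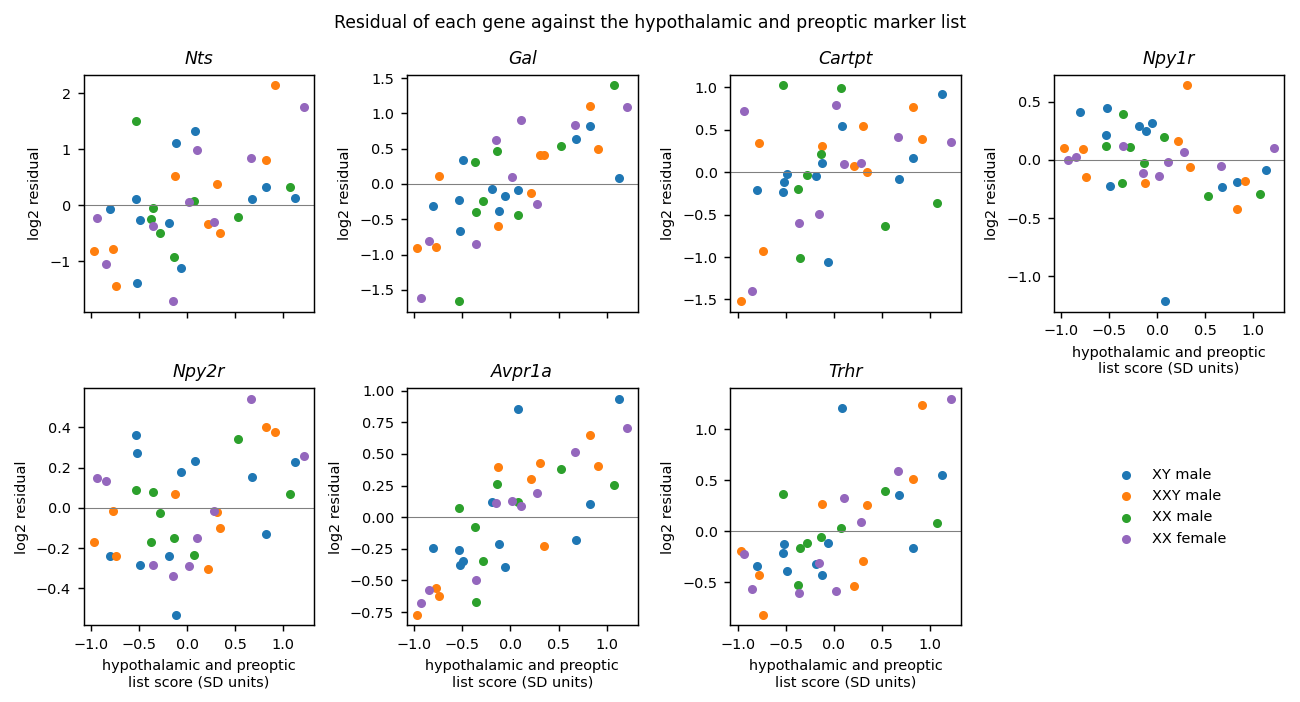
Residual log2 level of each of the 7 genes (vertical axis) against the score of the hypothalamic and preoptic marker list (horizontal axis, mean standardized residual) in 37 animals, coloured by group. Avpr1a and Gal rise with the score, Npy1r does not, and 1 XY male lies far below the rest for Npy1r.

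Markers of striatal projection neurons ran the other way. Their score correlated negatively with Trhr (r = -0.52, rho = -0.49, permutation p 0.0009 and 0.00245), Gal (r = -0.50, rho = -0.48, permutation p 0.00152 and 0.0028), Avpr1a (r = -0.46, rho = -0.44, permutation p 0.00406 and 0.00635) and Nts (r = -0.41, rho = -0.33, permutation p 0.0116 and 0.0449). Without the 2 farthest animals the values were -0.46, -0.44, -0.39 and -0.27. In batch 1 and batch 2 they were -0.53 and -0.52 for Trhr, -0.53 and -0.48 for Gal, -0.69 and -0.24 for Avpr1a, and -0.47 and -0.31 for Nts. Cartpt showed no such relation, at r = 0.032. This score called 58.3% of all features. Not every marker of the list was negative with Nts: Drd1 had r = 0.13, Ptpn5 0.23 and Tac1 0.30, none past the limma test.

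Nts, Cartpt, Trhr and Avpr1a were negatively correlated with part of the glial and vessel markers. Nts was negatively correlated with astrocyte markers (r = -0.81, rho = -0.72, permutation p 1e-05 for both), with -0.75 without 2 animals and -0.85 and -0.78 in the batches, and with endothelial markers (r = -0.70, rho = -0.55, permutation p 1e-05 and 0.00045), with -0.63 without 2 animals and -0.84 and -0.40 in the batches. Those scores called 63.7% and 62.2% of all features. The astrocyte list was not uniform. Its marker S100b had r = 0.58 with Nts and 0.57 with Trhr, both past the limma test, and Gfap had -0.06 and 0.12. Cartpt was negatively correlated with oligodendrocyte markers (r = -0.67, rho = -0.69, permutation p 1e-05 and 2e-05), with -0.63 without 2 animals and -0.72 and -0.62 in the batches, where 11.7% of all features passed. Nts was also lower where that list was higher (r = -0.49), as was Cartpt for the astrocyte list (r = -0.47). Trhr had r = -0.64 with the astrocyte and -0.57 with the endothelial list, and Avpr1a -0.47 and -0.43, and all of these passed in limma. Gal passed in limma with none of the 3 lists, with r of -0.20, -0.17 and 0.41 for the astrocyte, endothelial and oligodendrocyte markers. Their part in the co-variation of the 7 genes was not tested.

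Ligands and receptors of the same system were compared over animals for 8 pairs. Avp and its receptor gene Avpr1a rose and fell together, with r = 0.77 and rho = 0.76 (permutation p 1e-05 for both), 0.75 without 2 animals and 0.76 and 0.80 in the batches. Trh, the precursor of thyrotropin-releasing hormone, and Trhr had r = 0.68 and rho = 0.62 (permutation p 1e-05 and 4e-05), 0.60 without 2 animals and 0.60 and 0.79 in the batches. Oxt was also set against Avpr1a, with r = 0.80 and rho = 0.80 (permutation p 1e-05 for both). Its r was 0.78 without 2 animals and 0.71 and 0.89 in the batches. Values were also high across systems, with r = 0.79 for Trh with Avpr1a and 0.66 for Avp with Trhr. Positive calls made up 18.3% of all features for Avpr1a and 28.2% for Trhr. Avp, Oxt and Trh are also members of the hypothalamic list. In the neuropeptide Y system, Npy and Npy1r had r = -0.08 and rho = -0.069 (permutation p 0.641 and 0.683). Npy and Npy2r had r = -0.11 and rho = -0.14 (permutation p 0.528 and 0.406). With Npy1r or Npy2r as covariate, 0% of all features passed.

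Nts ran against the genes of 2 of its binding proteins. With Sort1, which encodes the sorting receptor sortilin, r was -0.84 and rho -0.78 (permutation p 1e-05 for both), -0.77 without 2 animals and -0.87 and -0.77 in the batches. With Ntsr2, a receptor gene of astrocytes, r was -0.53 and rho -0.37 (permutation p 0.00087 and 0.0253), -0.32 without 2 animals and -0.60 and -0.46 in the batches. Of all features, 34% passed with a negative sign for Nts. Ntsr1, detected in 23 of 37 animals, had r = -0.22 with Nts and did not pass. Ntsr2, Sort1, Npy, Npy5r, Avp and Trh were detected in all 37 animals and Oxt in 36. The galanin receptor genes, Pyy, Oxtr, Trhr2 and Avpr1b had no probe named in the annotation used here.

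Other genes of peptide signalling gave the same picture between groups. Of 16 tested further ligand genes (36 listed), 16 further receptor genes (48 listed) and 14 genes of precursor processing and dense-core granules (19 listed), 0 passed in any of the 6 comparisons. The 2 ligand genes with the largest difference from XY males were Avp in XX males (-1.49, SE 1.11, adjusted p 0.640 in limma) and Hcrt in XX females (1.23, SE 1.06, adjusted p 0.890 in limma). Among receptors these were Sstr1, a somatostatin receptor gene (-0.60, SE 0.20), and Sort1 (0.52, SE 0.31), both in XX males. Vgf, a granin-like precursor, differed by 0.66 (SE 0.37) in XX males and Chgb, the chromogranin B gene, by -0.61 (SE 0.35) in XX females. Across the 16 ligand genes the median difference was -0.19 in XX against XY males and 0.22 in XX females against XY males.

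Over animals, part of the ligand genes followed the 7 genes. With Trhr as covariate 8 of the 16 ligand genes were positive and past the limma test and 1 was negative. With Nts the counts were 7 and 1, with Avpr1a 6 and 0, with Gal 6 and 0, with Cartpt 4 and 0, and with Npy1r and Npy2r 0 and 0. Positive calls made up 28.2% of all features for Trhr, 31.1% for Nts, 18.3% for Avpr1a, 2.33% for Gal and 0.793% for Cartpt. Among the ligand genes, the highest value was 0.80 with Oxt for Avpr1a, 0.75 with Adcyap1, the PACAP precursor gene, for Nts, 0.68 with Trh for Trhr, 0.65 with Tac2, the neurokinin B precursor gene, for Gal and 0.61 with Oxt for Cartpt. Cartpt correlated at 0.65 with Scg2, a dense-core granule gene. Among the receptors, Rxfp3 had the highest value with Avpr1a (0.84), Trhr (0.78) and Nts (0.69). Of the 16 receptor genes, 3 were positive and 5 negative with Nts in limma, 4 and 4 with Trhr, and 5 and 3 with Avpr1a. Of the 14 processing and granule genes these counts were 4 and 6, 5 and 7, and 2 and 5. The lowest values with Nts were -0.84 for Sort1 and -0.83 for Furin. Gal and Cartpt had 0 negative calls in both lists. Negative calls made up 34% of all features for Nts, 30.1% for Trhr and 18.2% for Avpr1a.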

How the data were processed

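Per the file headers, the authors deposited a linear bead signal intensity for each probe and array that was not normalized between arrays. The authors also deposited a detection p-value for each intensity, and the standard error over beads and the number of beads, which served only for description. A second table that the authors deposited holds log2 values. How it was scaled and centred is not stated in the labels or headers, and the submitters' processing notes name limma. The 8 XX male columns of the deposited log2 table correlated with their own arrays at 0.062 to 0.073 (Spearman), against 0.987 or more in the other groups, so that table served only as an alternative without XX males. All columns of per-sample values could be tied to a sample (0 could not).

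Signals were background-corrected with normexp from the detection p-values, quantile-normalized and logged to base 2 after adding an offset of 16 (neqc in limma 3.58.1 under R 4.3.3). A probe was kept where at least 8 animals had a detection p-value under 0.01, which held for 12339 probes, and these were reduced to the brightest probe per named gene, 9455 features. Group differences came from lmFit and eBayes with all 4 groups, labelled batch and the share of letter b (0, 0.5 or 1, the letter term, used in place of an array run that the labels do not give), Benjamini-Hochberg adjustment over all features and an adjusted p threshold of 0.05, with 31 residual degrees of freedom. Co-variation used residuals of that model, two-sided permutation p-values from 100000 resamples and limma fits with the gene or list score as a covariate. The procedures were tested on simulated data. Array values have no count depth: precision is limited by the number of animals and by signal over background.

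All 7 genes were named in every comparison. The 3 named genes with the highest r were named as nearest to each, and from each peptide list the 2 genes with the largest difference from XY males. The genes and lists were chosen with earlier results of these data known. Figures were drawn with matplotlib 3.10.9 (Python 3.11.15).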

Additional observations from a re-analysis of the deposited data

Results flagged for a closer look

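Cartpt in XXY male 9 was far from the rest of its group, at 7.71 on the log2 scale against 9.41 for the next lowest animal. The gap was 0.535 of the group's whole range. Of 21 combinations of gene and group with 4 to 10 animals, 1 stood out in this way, and chance gives about 1 in 20. XXY male 9 is the only XXY male with letter b alone.

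XY male 3, which has detection p-values and no signal column, had 6 of the 7 genes detected. Avpr1a was among them, with a detection p-value of 0.00251, although only 3 of the 11 XY males with signal had it detected. Trhr was not, with a detection p-value of 0.0288.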

How the results depend on the processing

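Of 571 alternative values of the 42 differences of the 7 genes, 7 passed the threshold and 56 had the other sign, which touched 26 of the differences. Leaving out each animal in turn gave 1554 further values, of which 0 passed and 43 had the other sign. The 7 values past the threshold were the array weight values of Nts and Gal given in the report, and in XX males against XX females Nts without the letter term (-1.37), Nts with only the 2 groups in the fit (-1.36, adjusted p 0.0227 in limma) and Npy1r with only the 2 groups (0.30, adjusted p 0.0442 in limma). Over the alternatives, the adjusted p in limma of these differences ranged from 0.0184 to 1.00 for Nts and from 0.0442 to 1.00 for Npy1r. The cause was not tested. In the latter fits the letter could not be a term, because each group holds 1 letter.

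Counts of called features moved as follows, and 0 of the 7 genes were called where no gene count is given. Without the letter term, 207 features were called in XX females against XY males, 134 in XX against XY males, 165 in XXY against XX males, 2544 in XX males against XX females (1 of the 7 genes) and 1385 in the test of any difference. With only the 2 groups, 2478 were called in XX males against XX females (2 of the 7 genes). With array weights, counts were 26, 2477 (2 of the 7 genes) and 152 (1 of the 7 genes) in XX females against XY males, XX against XY males and XXY against XX males, 1964 (1 of the 7 genes) in XX males against XX females, 10 in XXY males against XX females, 192 in the test of any difference and 3378 for the letter term (1 of the 7 genes). Labelled batch 1 alone gave 2 in XXY against XY males, 1 in XX females against XY males, 3 in XX against XY males, 2 in XXY males against XX females, 0 in XX males against XX females, 4 in the test of any difference and 15 for the letter term. Labelled batch 2 alone gave 2, 14, 2, 2, 0, 6 and 0 in the same order. Letter a alone gave 2 in XXY against XY males. Probes detected in every animal gave 3, 1, 1, 0, 0 and 4 in the order of labelled batch 1 without the letter term, and 0 in XXY against XX males. The authors' log2 values gave 3 in XXY against XY males, 1 in XX females against XY males, 0 in XXY males against XX females and 0 for the letter term. Without the labelled batch, 8 were called in XX females against XY males and 3098 for the letter term (2 of the 7 genes, Gal and Cartpt). The letter term called 1 of the 7 genes without background correction (Gal) and 2 with median scaling (Avpr1a and Trhr).

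Over 48 pairs of same-numbered animals of different groups, deviations from the group means correlated at -0.59 to 0.69. The median was 0.11, and 27 pairs exceeded 0.1. With labelled batch and letter removed as well, the median was -0.015, and the numbers were not taken as pairs. With the replicate block in place of the labelled batch, XX females against XY males gave 3 called features and the letter term 428, and 0 of the 7 genes were called. Under that block, 7 pairs of genes passed in place of 6, and Cartpt with the hypothalamic list did not (adjusted p 0.0805 in limma).

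Leaving out 1 animal in turn gave counts of 6 to 6 in XXY against XY males, 5 to 6 in XX females against XY males, 5 to 6 in XX against XY males, 3 to 4 in XXY males against XX females, 2 to 4 in XXY against XX males (4 without XXY male 4), 1 to 1 in XX males against XX females, 9 to 11 in the test of any difference, 0 to 0 for the labelled batch and 879 to 2053 for the letter term (2053 without XXY male 5). For the letter term 0 to 1 of the 7 genes were called, Gal passing without XX female 9, XXY male 5, XY male 2 or XX male 5. Chosen after seeing the data, leaving out XXY male 5 and XX female 7 took the called relations with marker lists from 18 to 11 and the pairs from 6 to 5, the lost pair being Gal with Avpr1a (r = 0.49, adjusted p 0.0949 in limma).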
